A study of Drosophila melanogaster with 8 samples.

Results

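Expression of 7 genes best known from the nervous system was followed in Drosophila S2 cells: cac, stj, nrv3, CadN, brp, 5-HT7 and 5-HT2B. They were selected by their FlyBase symbols among the 15438 gene rows of each deposited table, after the values of all libraries were known, and all 7 were found. S2 cells are a late-embryo line that resembles macrophage-like blood cells (hemocytes). RNA sequencing libraries came from 4 groups: 3 from stable S2 lines carrying mutant Beaf, 3 from stable lines carrying wild-type Beaf, 1 from S2 cells depleted of CTCF and 1 from the control of that depletion. The lines of both Beaf genotypes were stably transfected with pUWG vectors that carry a neomycin resistance gene and were selected with G418, from which resistant colonies were taken; the labels do not say what the mutation is, nor whether a line is 1 clone. For the depletion cells received 400 µg of double-stranded RNA and were kept for 5 days, and what the control received is not stated. BEAF-32 and CTCF are insulator proteins, which bind near promoters and at boundaries between chromatin domains.

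In neurons, cac encodes the pore-forming subunit of the voltage-gated calcium channel that triggers transmitter release, and stj encodes its auxiliary subunit, which carries the channel to the presynaptic membrane. Bruchpilot, the product of brp, builds the active zone beside these channels. The product of nrv3 is a beta subunit of the sodium pump, CadN encodes N-cadherin, a homophilic adhesion protein of axons and synapses, and 5-HT7 and 5-HT2B encode G-protein-coupled receptors for serotonin. None of them is a defining gene of hemocytes.

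By the BDGP6.54 annotation, a build that may differ from the authors' own, cac lies on X from 11931280 to 11985087 on the minus strand, nrv3 on 2L from 21380000 to 21393319 on the plus strand and CadN on 2L from 17647053 to 17778340 on the minus strand. The serotonin receptor gene 5-HT7 lies on 3R from 30968236 to 31016875 on the minus strand and 5-HT2B on 3R from 8578205 to 8629996 on the plus strand. Both stj and brp lie on 2R. The summed exons cover 11923 bases in cac, 6273 in stj, 4770 in nrv3, 14396 in CadN, 13371 in brp, 4486 in 5-HT7 and 6333 in 5-HT2B. No exon of the 7 genes overlaps an exon of another annotated gene, so their reads are not shared with a neighbour in that annotation.

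The 3 tables of the Beaf lines each hold 1 mutant and 1 wild-type library, and the table gives both their number. Gene reads numbered 1528041 to 1885689 in the Beaf libraries, with wild-type library 3 counted on its deposited scale, against 9267319 in the CTCF knockdown and 10963743 in its control. Values of wild-type library 3 could not be turned back into whole reads, so its reads and Poisson intervals below are on that deposited scale. Values are given as CPM, the reads of a gene scaled to a common total over all gene rows. Each library numbered 1 stood apart from the others of its genotype. BEAF-32 RNA was at 1228, 1613 and 1929 CPM in the mutant libraries, against 25.0, 469 and 676 CPM in the wild-type libraries. Mutant library 1 had reads in 12268 genes, against 9070 to 9874 in the other Beaf libraries. Of 2750 protein-coding genes without a read in the other 5 Beaf libraries, 35.7% had a read in mutant library 1; the same share for each other library was 1.01% to 2.16%. No label says that separate cultures were sampled, so p-values measure only the spread between these libraries, which may be technical, and any other difference between the lines cannot be told apart from the genotype.

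By summed level, hemocyte markers were abundant and neuron-defining genes scarce in every library. The summed level of 12 hemocyte markers was 9746 to 14061 CPM in mutant, 1615 to 6538 CPM in wild-type, 24816 CPM in knockdown and 33131 CPM in control libraries. Not every marker was abundant. In wild-type library 1, NimC1 was at 0, He at 0.471 and Sr-CI at 0.942 CPM, against 216 CPM for Hml and 330 CPM for srp. The summed level of 14 neuron identity markers was 47.7 and 57.0 CPM in mutant libraries 2 and 3 and 26.4 to 38.9 CPM in wild-type libraries, with 19.6 CPM in the knockdown and 17.9 CPM in the control. Mutant library 1 stood above all of these with 319 CPM. The pan-neuronal RNA-binding protein gene elav and the RNA editing gene Adar were listed at 0 in all 8 libraries, where 34.2% and 5.56% of their exon bases overlap another gene. In bulk RNA, more RNA per cell and more cells of a type cannot be told apart.

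The first comparison asked how the 7 genes differed between cells carrying mutant and wild-type Beaf. Because their values helped to choose them, the differences are described and not tested. The calcium channel genes cac and stj, the pump gene nrv3, the cadherin gene CadN and 5-HT7 were higher in every mutant library than in every wild-type library, while brp and 5-HT2B overlapped between the genotypes.

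The calcium channel pore gene cac had 46.4, 69.5 and 60.2 CPM in mutant libraries 1, 2 and 3, against 0.471, 19.0 and 21.3 CPM in the wild-type libraries of the same numbers. The mutant values rested on 75, 131 and 93 reads and the wild-type values on 1, 29 and 34 reads. All mutant libraries lay above all wild-type libraries, and wild-type library 1 was far below the other libraries. The means were 58.7 ± 11.6 CPM in mutant and 13.6 ± 11.4 CPM in wild-type libraries (SD, n = 3 each). The fitted log2 fold change of cac, mutant over wild type, was 2.78 with an SE of 0.94 over all 6 libraries and 1.63 with an SE of 0.18 in libraries 2 and 3. Only for cac was mutant library 1 not the highest mutant library.

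Its auxiliary subunit gene stj stood at 150, 81.7 and 73.2 CPM in the mutant libraries, against 0.942, 22.8 and 32.6 CPM in the wild-type libraries. The groups did not overlap, and wild-type library 1, with 2 reads of stj, was again the lowest. The means of stj were 102 ± 42.3 CPM in mutant and 18.8 ± 16.2 CPM in wild-type libraries (SD, n = 3 each), and the fitted log2 fold change over all 6 libraries was 3.10 (SE 1.00). In libraries 2 and 3 it was 1.46 with an SE of 0.17. Both channel genes thus had a smaller fitted difference without the libraries numbered 1, and a smaller SE.

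**Figure D1:**
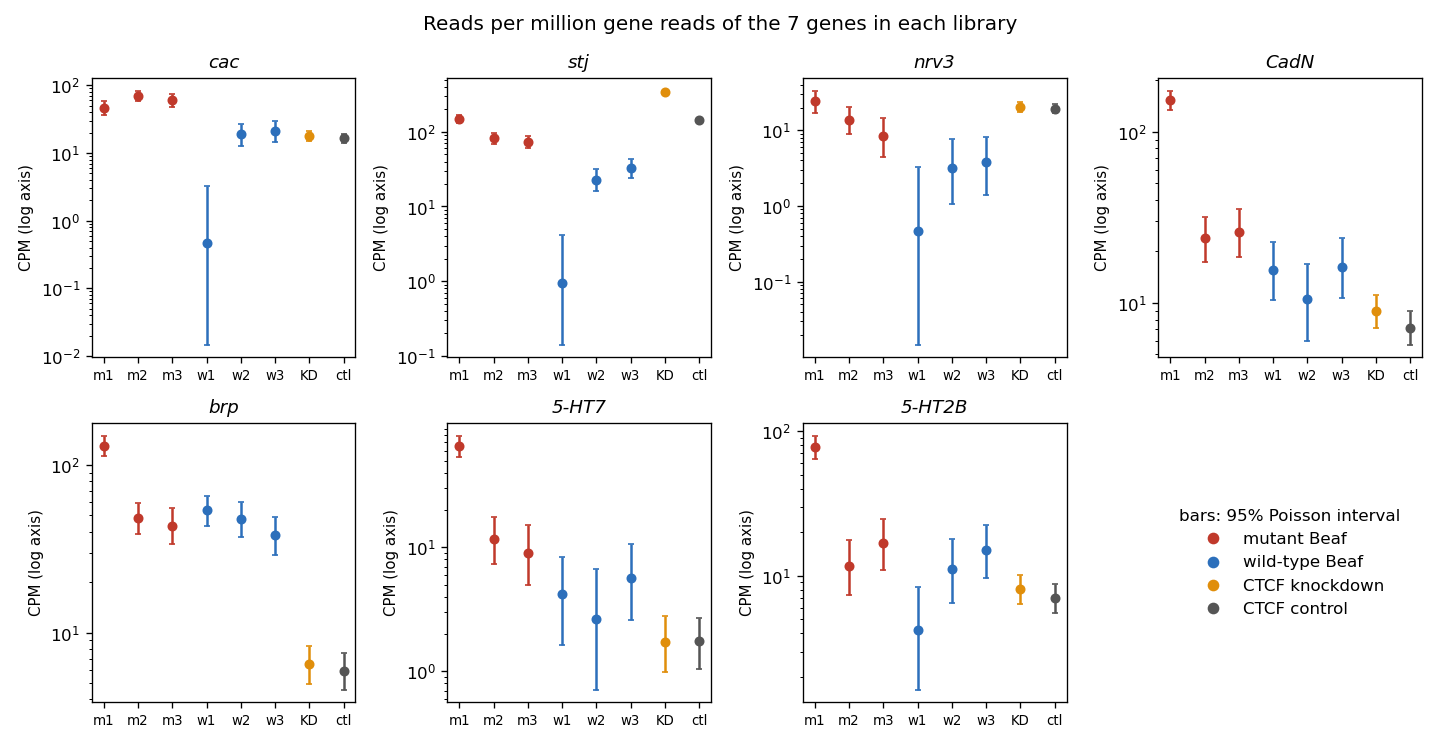
CPM (log axis) of each gene in the mutant (m1 to m3), wild-type (w1 to w3), CTCF knockdown (KD) and control (ctl) libraries, with bars for the 95% Poisson interval of the reads, which covers counting error only. For cac the mutant libraries lie between 46.4 and 69.5 CPM and the wild-type libraries between 0.471 and 21.3 CPM, and mutant library 1 is the highest Beaf library for the other 6 genes.

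The sodium pump gene nrv3 was scarce. It stood at 24.1, 13.8 and 8.42 CPM in the mutant libraries, on 39, 26 and 13 reads, against 0.471, 3.17 and 3.76 CPM in the wild-type libraries, on 1, 5 and 6 reads. The groups did not overlap, but mutant library 3 and wild-type library 3 were only a few reads apart, with 95% Poisson intervals of 4.48 to 14.4 CPM and 1.38 to 8.18 CPM. The log2 fold change of nrv3 was 2.30 with an SE of 0.58 over all 6 libraries and 1.37 with an SE of 0.37 in libraries 2 and 3.

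The cadherin gene CadN stood at 153, 23.9 and 25.9 CPM in the mutant libraries, against 15.5, 10.6 and 16.3 CPM in the wild-type libraries. All mutant libraries lay above all wild-type libraries, and mutant library 1 held 6.14 times the mean of mutant libraries 2 and 3. The mean of 67.5 ± 73.9 CPM in the mutant therefore has an SD larger than itself, against 14.1 ± 3.11 CPM in wild type (SD, n = 3 each). The log2 fold change of CadN was 1.70 with an SE of 0.74 over all 6 libraries and 0.86 with an SE of 0.26 in libraries 2 and 3. Wild-type library 1 did not stand apart for this gene, unlike for cac and stj.

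The active zone gene brp stood at 130.0, 48.3 and 43.4 CPM in the mutant libraries, against 53.7, 47.6 and 38.2 CPM in the wild-type libraries. Without the libraries numbered 1 the genotypes lay side by side, at 45.8 ± 3.44 CPM in mutant and 42.9 ± 6.64 CPM in wild type (SD, n = 2 each). The log2 fold change of brp was 0.54 with an SE of 0.47 over all 6 libraries and 0.10 with an SE of 0.16 in libraries 2 and 3. Only mutant library 1 lay above the wild-type range.

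The serotonin receptor gene 5-HT7 stood at 65.0, 11.7 and 9.07 CPM in the mutant libraries, against 4.24, 2.65 and 5.64 CPM in the wild-type libraries. The groups did not overlap, but no wild-type library held more than 9 reads of it. The fitted log2 fold change of 5-HT7 was 2.05 (SE 0.76) over all 6 libraries and 1.17 with an SE of 0.37 in libraries 2 and 3. Mutant library 1 held 6.27 times the mean of mutant libraries 2 and 3.

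The other receptor gene, 5-HT2B, stood at 77.4, 11.7 and 16.8 CPM in the mutant libraries, against 4.24, 11.1 and 15.0 CPM in the wild-type libraries. Mutant library 2 lay between wild-type libraries 2 and 3 and mutant library 3 slightly above both, and only mutant library 1 was clearly above. The log2 fold change of 5-HT2B was 1.42 with an SE of 0.77 over all 6 libraries and 0.11 with an SE of 0.29 in libraries 2 and 3.

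**Figure D2:**
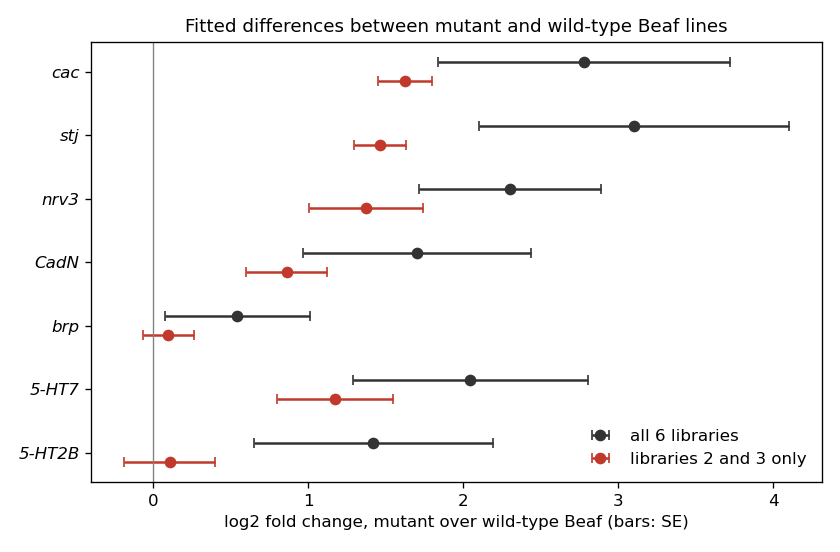
Fitted log2 fold change of each gene, mutant over wild-type Beaf, with bars for the SE, over all 6 libraries (black) and over libraries 2 and 3 of each genotype (red). In libraries 2 and 3, cac is at 1.63 and stj at 1.46, while brp is at 0.10 and 5-HT2B at 0.11.

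All 7 genes passed the filter on low values in both fits, nrv3 and 5-HT7 in each fit only through their mutant libraries. Over all 6 libraries, cac, stj and 5-HT2B would not have passed on their wild-type libraries alone either, as wild-type library 1 was too low. The counts of calls below come from fits over all genes and are no test of these 7, which were picked with their values known. Over all 6 libraries limma-trend, with Benjamini-Hochberg adjustment, called none of the 7 genes at an adjusted p of 0.05, and it called 0.0% of 6564 genes as higher in the mutant, with 1274 genes at an unadjusted p under 0.05. EdgeR's quasi-likelihood test also called 0 genes, while DESeq2 called 4 of the 7 and 3.33% of 6463 genes as higher. In libraries 2 and 3, limma-trend called 5 of the 7 genes as higher (cac, stj, nrv3, CadN and 5-HT7), beside 9.34% of 6619 genes, and DESeq2 called cac and stj, beside 2.49% of 6457 genes, while it gave 2 of the 7, nrv3 and 5-HT7, no adjusted p. The mutant libraries lay all above the wild-type libraries for 5 of the 7 genes and for 17.5% of 6564 genes. Mutant libraries 2 and 3 both lay above wild-type libraries 2 and 3 for 5 of the 7 genes and for 28.1% of 6619 genes. Without mutant library 1 alone, limma called 0 of the 7 genes and 4.25% of 6732 genes as higher. These counts belong to the values that chose the genes and add nothing to them. The median log2 fold change in libraries 2 and 3 was 1.17 over the 7 genes and −0.01 over all genes tested. This difference, too, comes from values that helped to choose the genes and is no test. The count of 5 depended on single libraries and on the filter. It was 4 with no filter on low values, where 5-HT7 was not called, beside 508 of 11181 genes called as higher. Leaving out 1 library leaves 1 library in a genotype, so only fold changes are given for those fits. The log2 fold change was then 1.05 to 1.69 for nrv3, 0.59 to 1.13 for CadN and 0.76 to 1.58 for 5-HT7.

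Mutant library 1 was above both other mutant libraries for 6 of the 7 genes and for 33.0% of the genes tested. Whether it was also the highest of the 6 Beaf libraries for other neuronal genes differed between lists. This was so for 12 of 14 neuron identity markers, the other two being elav and Adar at 0, for 10 of 10 other receptors of amines and acetylcholine, for 18 of 19 other neuronal channels and for 9 of 9 other serotonin genes. It was so for 4 of 5 calcium and leak channel genes, 12 of 18 active zone and release genes, 14 of 23 cadherin and adhesion genes and 6 of 9 glia markers. For sodium pump genes it was 2 of 6, for receptor effectors 4 of 14 and for hemocyte markers 1 of 12. Over all genes with a read in a Beaf library the share was 52.9%. The summed level of the other neuronal channels was 957, 279 and 274 CPM in mutant libraries 1, 2 and 3, against 135, 179 and 165 CPM in the wild-type libraries of the same numbers. The summed level of the receptor effectors went the other way in mutant library 1, with 1723, 2427 and 2420 CPM in the mutant libraries, against 2360, 2343 and 2400 CPM in the wild-type libraries. Per kilobase of exon, mutant library 1 held 6.29 reads of cac, 38.7 of stj, 8.18 of nrv3, 17.2 of CadN, 15.7 of brp, 23.4 of 5-HT7 and 19.7 of 5-HT2B. Protein-coding genes without a read in the other 5 Beaf libraries held 0.778 reads per kilobase in it when pooled, with a median of 0 and a 90th percentile of 4 reads per kilobase. The part of these reads in the levels of the 7 genes was not tested.

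**Figure D3:**
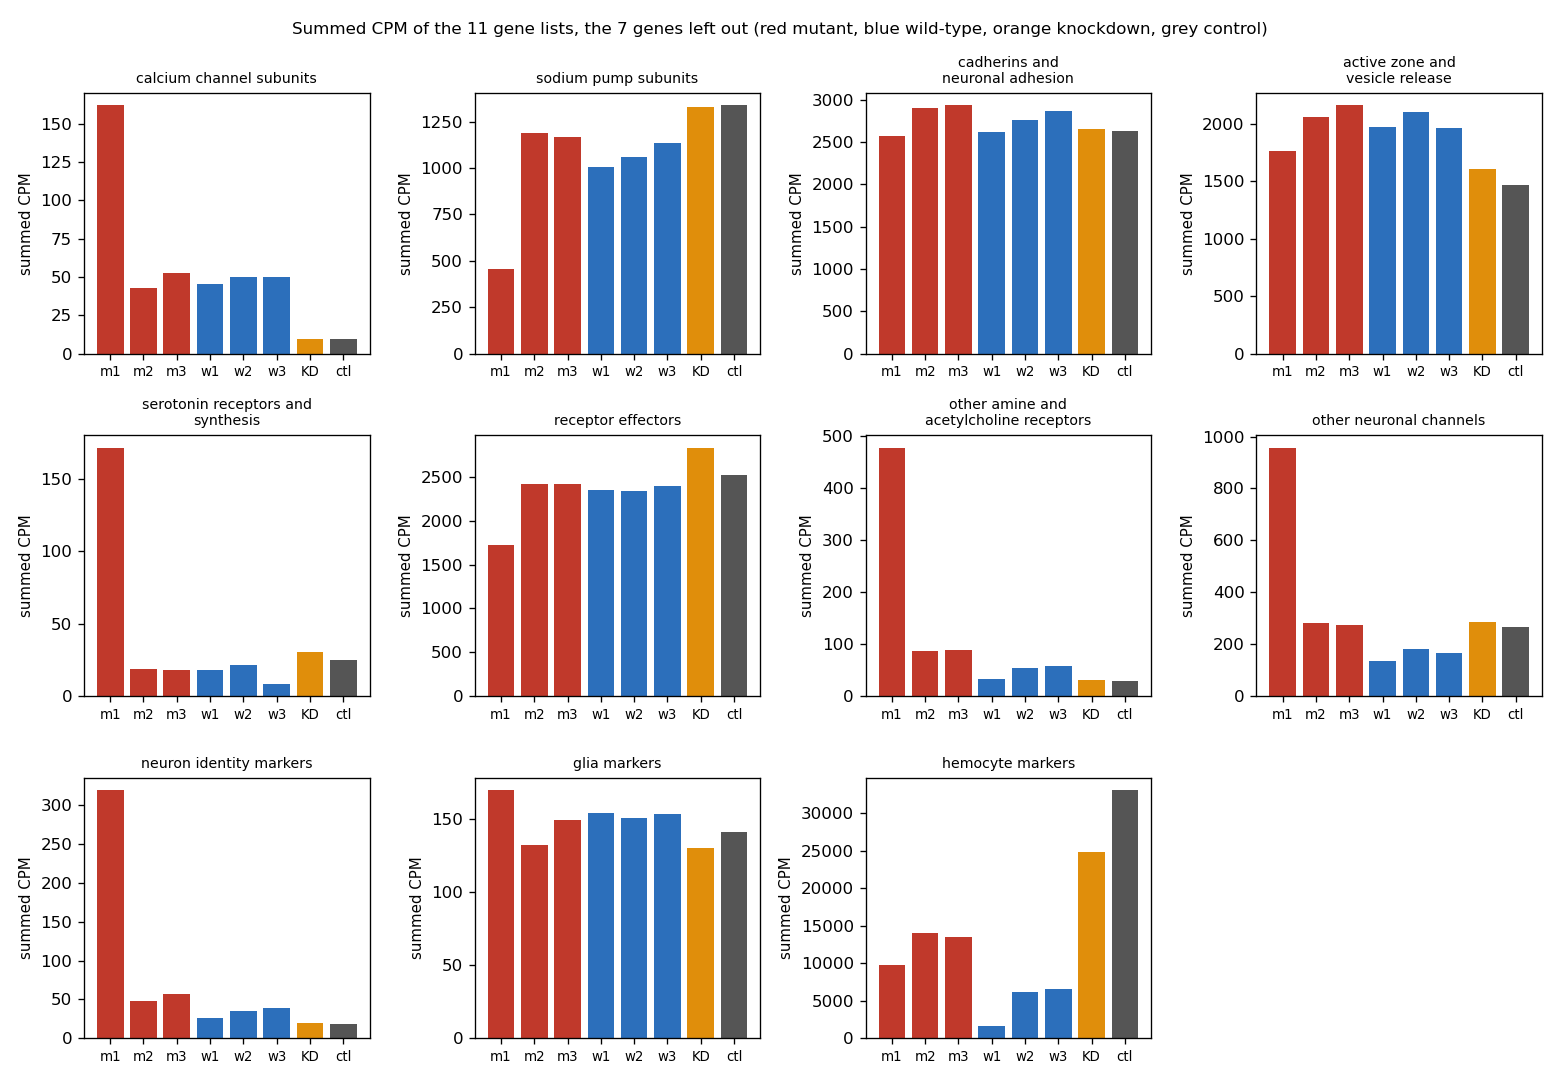
Summed CPM of the 11 gene lists in each library, with the 7 genes left out: mutant (m1 to m3, red), wild type (w1 to w3, blue), CTCF knockdown (KD, orange) and control (ctl, grey). Mutant library 1 is the highest bar for neuron identity markers, at 319 CPM, and for 5 other lists, and the lowest of the 6 Beaf libraries for sodium pump (457 CPM), adhesion (2570 CPM), active zone (1757 CPM) and receptor effector genes (1723 CPM).

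Wild-type library 1 departed in the other direction for part of the genes. It held 0.0233 times the mean of wild-type libraries 2 and 3 for cac, 0.0341 times for stj, 0.136 times for nrv3 and 0.324 times for 5-HT2B. For CadN, brp and 5-HT7 the same ratio was 1.16, 1.25 and 1.02. It was below both other wild-type libraries for 44.7% of the genes tested. BEAF-32 RNA moved likewise, at 0.0436 times that mean, and the part of the BEAF-32 level in these genes was not tested.

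Levels between genes were compared per kilobase of exon. In mutant libraries stj was the highest at 16.2 ± 6.75 CPM per kilobase, followed by 5-HT7 (6.37 ± 7.03), 5-HT2B (5.57 ± 5.77), brp (5.52 ± 3.64), cac (4.92 ± 0.97), CadN (4.69 ± 5.13) and nrv3 (3.24 ± 1.67; SD, n = 3 each). From 5-HT7 down to nrv3, neighbours in this order did not differ beyond their SD. In wild-type libraries brp was the highest at 3.48 ± 0.58 CPM per kilobase and stj followed at 2.99 ± 2.58. Next came 5-HT2B (1.60 ± 0.86), cac (1.14 ± 0.96), CadN (0.98 ± 0.22), 5-HT7 (0.93 ± 0.33) and nrv3 (0.52 ± 0.37; SD, n = 3 each). Neighbours from brp to 5-HT7 differed by less than the larger SD of the pair, while 5-HT7 and nrv3 differed by more than either SD.

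The second comparison set CTCF-depleted cells against their control, with 1 library each and thus no replicate check. CTCF RNA was at 11.3 CPM in the knockdown, against 55.4 CPM in the control. The calcium channel subunit gene stj stood apart from the other 6 genes: it was at 340.1 CPM in the knockdown on 3152 reads, against 143 CPM in the control on 1567 reads. The ratio of knockdown to control was 2.38, with an exact 95% interval of 2.24 to 2.53 that covers counting error only. A ratio of at least 2 was reached by 1 of the 7 genes, beside 1.88% of 7759 genes with at least 10 reads in 1 of the libraries.

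Its channel partner cac stood at 17.9 CPM in the knockdown and 16.6 CPM in the control, a ratio of 1.08 with a 95% interval of 0.869 to 1.34. The ratio was 1.05 for nrv3 (0.858 to 1.28), 1.24 for CadN (0.902 to 1.71), 1.09 for brp (0.756 to 1.58) and 1.15 for 5-HT2B (0.827 to 1.60). For 5-HT7, with 16 reads in the knockdown and 19 in the control, it was 0.996 with a wide interval of 0.479 to 2.05. All of these 6 intervals include 1, and none reaches the ratio of stj.

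**Figure D4:**
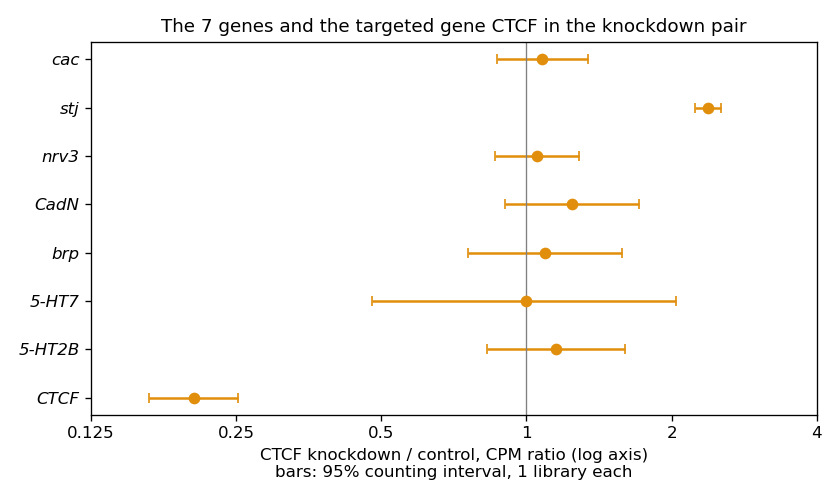
Ratio of CPM in the CTCF knockdown to its control for the 7 genes and for CTCF itself (log axis), with bars for the 95% exact counting interval and 1 library per group. The ratio is 2.38 for stj, between 0.996 and 1.24 for the other 6 genes and 0.205 for CTCF.

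Across the 4 groups the genes fell into different orders. The highest level of stj was in the knockdown, at 340.1 CPM. Mutant library 1 followed at 150 CPM and then the control at 143 CPM, above all other Beaf libraries. In contrast brp was at 6.47 CPM in the knockdown and 5.91 CPM in the control, below the lowest Beaf library at 38.2 CPM, and 5-HT7 was at 1.73 CPM in the knockdown and 1.76 CPM in the control. For cac the knockdown and control lay just below wild-type libraries 2 and 3. For nrv3 they lay within the range of the mutant libraries, at 20.4 CPM in the knockdown and 19.4 CPM in the control. These levels come from separate tables and preparations, and 85.6% to 94.0% of the reads in Beaf libraries were assigned to no feature, against 6.93% in the knockdown and 8.05% in the control, so treatment and preparation cannot be told apart.

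Other genes of the same pathways were then examined in libraries 2 and 3 of each Beaf genotype, where limma's test over all 6619 genes called 9.34% as higher and 5.39% as lower in the mutant. With all 6 libraries it called none of the list genes named below. The calls in libraries 2 and 3 rest on libraries kept because they lay close together.

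Of 5 other calcium and leak channel genes in the tables, 3 were tested and 1 rose. The leak channel gene na rose by 1.11 on the log2 scale (limma adjusted p = 0.043), at 10.6 and 8.42 CPM in mutant libraries 2 and 3, against wild-type values of 3.17 and 4.39 CPM in the libraries of the same numbers. It passed the filter on low values only through its mutant libraries, so its call is no independent support. The leak channel partner gene unc79 and the auxiliary subunit gene stol had log2 fold changes of −0.26 and −0.40 (limma adjusted p = 0.48 and 0.44). The median over the 3 was −0.26, against −0.01 over all genes tested.

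The sodium pump needs an alpha subunit with its beta subunit. Its main alpha gene Atpalpha rose, at 807 and 817 CPM in mutant libraries 2 and 3, against wild-type values of 621 and 664 CPM in the libraries of the same numbers (log2 fold change 0.34, limma adjusted p = 0.0013). Mutant library 1 lay below all of these with 333 CPM. The beta subunit gene nrv1 fell by 0.32 on the log2 scale (limma adjusted p = 0.00848), and nrv2, the third beta gene, had −0.28 (limma adjusted p = 0.13). The pump list thus had 1 gene up and 1 down of 3 tested, with a median of −0.28.

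Among 17 tested cadherin and neuronal adhesion genes besides CadN, 2 rose and 1 fell, with a median log2 fold change of 0.28. One of the genes not called, Nrx-1, passed the filter on low values only through its mutant libraries. Others, such as ft and Cad96Cb, would not have passed it on their wild-type libraries alone. The median thus includes genes kept for their mutant levels. Fas2, an immunoglobulin-type adhesion gene of axons, rose with 0.61 (limma adjusted p = 3.86e-05), and kug, an atypical cadherin gene, rose with 0.28 (0.00913). The beta-catenin gene arm, whose product binds cadherins, fell by 0.24 (0.045). The neighbouring cadherin gene CadN2 was at 1021 and 1032 CPM in mutant libraries 2 and 3, against wild-type values of 1131 and 1149 CPM in the libraries of the same numbers (log2 fold change −0.15, limma adjusted p = 0.11).

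Of 10 tested active zone and vesicle release genes besides brp, 2 rose and 0 fell, with a median of 0.22. These were comt, which encodes the fusion ATPase NSF (log2 fold change 1.19, limma adjusted p = 0.011), and the synaptic vesicle gene Syn (0.59, 0.000151). The abundant release genes Snap25 and unc-13 had −0.11 (0.37) and 0.14 (0.19).

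Of 9 other genes of serotonin reception, transport and synthesis only the vesicular transporter gene Vmat was abundant enough to test, whose log2 fold change was −0.02 at a limma adjusted p of 0.98. The G-protein and second messenger genes that act behind such receptors were all tested, and 3 of 14 rose and 1 fell, with a median of 0.09. The protein kinase A regulatory subunit gene Pka-R2 rose with 0.90 (limma adjusted p = 0.014), the phospholipase C gene norpA with 0.70 (4.09e-05) and Itpr, the gene of the calcium release channel, with 0.31 (0.032), while the G-protein gamma gene Ggamma1 fell by 0.32 (0.020). The adenylyl cyclase gene rut and the G-protein alpha gene Galphai had −0.13 (0.19) and 0.21 (0.11).

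Among 8 tested neuronal channels of other kinds 4 rose and 0 fell, with a median of 0.64. They were the hyperpolarization-activated channel gene Ih (log2 fold change 1.55, limma adjusted p = 0.000753), and the potassium channel genes eag (1.02, 0.00613), sei (0.91, 0.0447) and SK (0.83, 0.000337). Ih had 24.9 and 22.0 CPM in mutant libraries 2 and 3, against wild-type values of 6.35 and 8.15 CPM in the libraries of the same numbers, while the potassium channel gene Shab had 0.21 (0.41). None of the 6 tested receptors of amines and acetylcholine was called, with a median of 0.69. Oamb and Dop1R1, receptors of octopamine and dopamine, had 0.71 (0.090) and 0.30 (0.40). Octbeta2R and Oct-TyrR, with log2 fold changes of 1.11 and 1.05, passed the filter on low values only through their mutant libraries. Octbeta1R, at 0.67, would not have passed that filter on its wild-type libraries alone. That median thus includes genes kept for their mutant levels.

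Of 14 neuron identity markers only 2 were abundant enough to test, and of 9 glia markers 3, and limma called none of these 5 genes. The neuron genes Appl and futsch had log2 fold changes of 0.32 and 0.52 (limma adjusted p = 0.49 and 0.26), and the glia genes moody and nrv2 0.32 and −0.28 (0.24 and 0.13). Hemocyte markers rose in 9 of 11 tested genes and fell in 0, with a median of 1.06, among them the collagen genes Col4a1 (1.23) and vkg (1.16), the clotting gene Hml (1.29), Glt (1.37) and the scavenger receptor gene Sr-CI (1.60; limma adjusted p at most 2.94e-08).

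**Figure D5:**
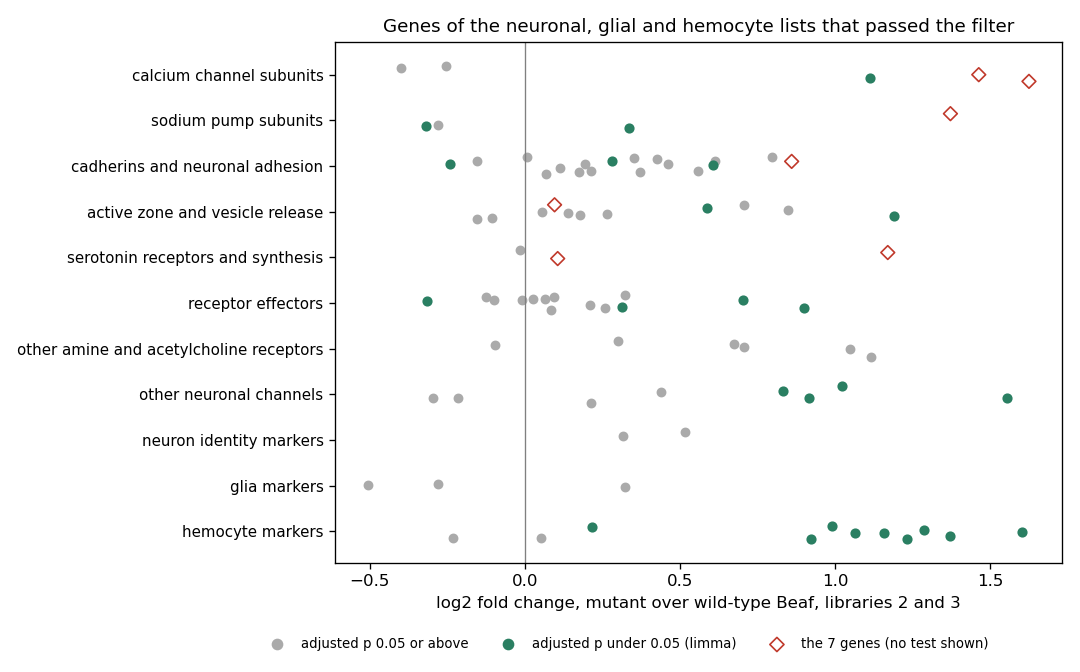
Log2 fold change, mutant over wild-type Beaf in libraries 2 and 3, of each list gene that passed the filter on low values, with genes past limma's adjusted p of 0.05 in green, others in grey and the 7 genes as open diamonds without a test. Of the other neuronal channels 4 of 8 are green and lie between 0.83 and 1.55, and 9 of 11 hemocyte markers are green.

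The genes most like each of the 7 in pattern were sought by Pearson's r of log2 CPM over the 6 Beaf libraries, among genes with a mean of at least 10 CPM. With 6 libraries in 2 genotypes many genes reach a high r, and 1 library that stands apart can set most of it. Wild-type library 1 held 1 read of cac and 2 reads of stj, and mutant library 1 was far above all others for CadN and 5-HT7. The r values are thus a description. The closest to cac were the collagen IV genes vkg (r = 0.9999) and Col4a1 (0.9996), of 95 genes with r above 0.95. For stj they were del (0.9992) and Sgs1 (0.9988), and for nrv3 they were RhoGAP5A (0.995) and Samuel (0.994). The closest to CadN were ths (0.998) and CG42534 (0.996), to brp klg (0.997) and ETHR (0.992), to 5-HT7 CG32264 (0.999) and HERC2 (0.997), and to 5-HT2B FBgn0085743 (0.996) and Ugt50B3 (0.995). The collagen gene vkg stood at 1582, 2160 and 2010 CPM in the mutant libraries, against 147, 910 and 955 CPM in the wild-type libraries, the same order of libraries as for cac. Among the 7 genes themselves, cac and stj had an r of 0.97 and CadN and 5-HT7 one of 0.99, while cac and brp had 0.14.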

How the data were processed

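RNA of S2 cells was sequenced in 8 libraries. The labels' protocols describe a pair of TruSeq preparations, of which the second had no poly-A selection, without saying which libraries each covers. The submitters' processing notes list CASAVA 1.8, BWA and HTSeq. The build, annotation and strand setting were not given in the sources used here. The deposited columns of mutant and knockdown libraries hold raw counts per gene. The deposited wild-type and control columns hold a signal, namely read counts times 1 factor per column and rounded, as read from the values: dividing by 1.234, 1.237 and 1.297 gave whole reads, within a rounding tolerance of 0.5, for 99.99%, 100% and 99.9% of values in wild-type libraries 1 and 2 and the control. Chance would give 81.0%, 80.8% and 77.1%. No such factor was found for wild-type library 3, which was treated as rescaled and used as deposited. Only factors above 1 were searched.

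CPM were taken over gene rows without the last 5. Rows of unassigned reads were left out: reads outside features made up 6.93% to 94.0% of a library. Limma-trend used TMM factors, filterByExpr and log2 CPM with a prior count of 2, two-sided, adjusted over all genes at 0.05, since rescaled values are not counts, once over all 6 Beaf libraries and once over those numbered 2 and 3. EdgeR's and DESeq2's count tests on recovered reads were alternatives and called 0 and 216 genes over all 6 libraries, and 1065 and 175 in libraries 2 and 3. The limma fits were run on simulated counts drawn from the mean profile of libraries 2 and 3, with some genes changed. No simulated library stood apart from the rest, so this is no check of the fit over all 6 libraries. Chi-square per degree of freedom between libraries of a genotype was 2.19 or more, so none was counted as a duplicate. Intervals (95%) cover counting error only.

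Members and lists were chosen with earlier results of these data known, and so was the use of libraries 2 and 3. By the naming rule, up to 5 called genes and the 2 most abundant of each list are named. Of 158 list entries in 11 lists, 146 were in the tables. Symbols matched 14606 of 15438 IDs. No sequence was used here. The fits ran in R 4.3.3 with DESeq2 1.42.0, edgeR 4.0.16 and limma 3.58.1. Tables and plots were made in Python 3.11.15 with matplotlib 3.10.9, scipy 1.17.1, numpy 2.4.6 and pandas 2.3.3.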

Additional observations from a re-analysis of the deposited data

How the results depend on the processing

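Over all 6 Beaf libraries limma-trend called 0 genes, DESeq2 called 216 and limma without mutant library 1 called 471, while leaving out 1 library gave 0 to 471; the cause was not tested. In libraries 2 and 3 limma-trend called 975 genes and DESeq2 175, and leaving out 1 library gave 660 to 897, with 1 lone library assumed to vary like the others. Taking the table number as a replicate block, the counts were 0 and 1230; the deviations of the libraries of 1 table from their genotype means correlated at −0.16, −0.12 and −0.08 across genes, so the tables were not taken to pair the libraries. The block changed no call on the 7 genes. With a floor of 30 reads, 63 of 7083 genes were at least 2-fold above and 26 at least 2-fold below the CTCF control. With 10 reads it was 146 and 64 of 7759 genes, and the genes lost had fewer than 30 reads in both libraries. Over the alternatives the log2 fold change of cac ranged from 1.54 to 3.41 over 6 libraries and from 1.53 to 1.72 in libraries 2 and 3. That of brp ranged from −0.04 to 0.84 over 6 libraries and from −0.08 to 0.26 in libraries 2 and 3, and that of 5-HT2B from 0.55 to 1.99 and from −0.15 to 0.35. In the CTCF pair the log2 ratio of stj was 1.19 to 1.25 under the 2 alternatives. At the depth of the Beaf libraries, nrv3 and 5-HT7, with at most 9 reads in a wild-type library, are limited by counting.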
